A study of Mus musculus with 4 samples.

Results

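The endothelin system and *Lcn2* were read as 7 of the 24322 gene symbols in the RNA-seq files of mTFP-positive Müller glia. The genes were the ligands *Edn1*, *Edn2* and *Edn3*, the processing protease *Ece1*, the receptors *Ednra* and *Ednrb*, and *Lcn2*. They were chosen by their FPKM, with the difference between control and *Rax* iCKO in view, so for them that difference is described and carries no test. Each library came from 1 mouse, with 2 mice per group. Control mice (7984 and 3911) had the genotype Raxflox/WT, and *Rax* iCKO mice (7983 and 3914) had Raxflox/flox. Both groups also carried Rlbp1-CreERT2 and R26-CAG-LoxP-mTFP1, had been given tamoxifen at P4, and the retinas were taken at P14. The cell line field of their labels reads 129S6, which may stand for the mouse strain. Cre was driven by a promoter fragment of the Müller glial gene *Rlbp1*, whose expression is shared with the retinal pigment epithelium, and tamoxifen also switched on the fluorescent protein mTFP1 by which the cells were sorted. The controls were thus heterozygous for the floxed allele and had also received tamoxifen, and no library came from mice without Cre or without tamoxifen.

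Endothelins are small peptides that bind a pair of G protein-coupled receptors, and the membrane metalloprotease endothelin-converting enzyme releases them from inactive precursors. In the injured retina, photoreceptors are known to release endothelin 2, which acts on endothelin B receptors of Müller glia, and leukemia inhibitory factor from Müller glia is part of the same signalling loop. *Lcn2* encodes lipocalin 2, a secreted acute-phase protein that binds bacterial siderophores, is stored in neutrophil granules and is induced in reactive glia.

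Promoter sequences are shown for the genes that held the letters TAATT, *Lcn2* and *Edn1*, and for both receptors, which did not, since *Rax* encodes a paired-type homeodomain protein and such proteins bind DNA with these core letters. RefSeq promoters on GRCm38.p6 were found for all 7 genes, 10 promoters in total, 4 of them of *Ece1*. Each line gives the 250 bases before the RefSeq start, or for *Lcn2* the 192 of them that GENCODE does not mark as untranslated region, 5′ to 3′ on the strand of the gene, with TAATT or its reverse complement AATTA in capitals. The *Lcn2* promoter lies on the minus strand at chr2:32387798-32387989, that of *Edn1* on the plus strand at chr13:42301226-42301475, that of *Ednrb* on the minus strand at chr14:103843702-103843951 and that of *Ednra* on the minus strand at chr8:77724453-77724702. GENCODE places the starts of *Lcn2* and *Ednrb* further upstream, so both of these windows lie inside the gene spans given below, as do 12 bases of that of *Ednra*.
Lcn2: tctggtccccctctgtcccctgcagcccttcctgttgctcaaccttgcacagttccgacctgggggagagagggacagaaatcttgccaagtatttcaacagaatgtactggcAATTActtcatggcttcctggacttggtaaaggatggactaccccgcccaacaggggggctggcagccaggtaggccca
Edn1: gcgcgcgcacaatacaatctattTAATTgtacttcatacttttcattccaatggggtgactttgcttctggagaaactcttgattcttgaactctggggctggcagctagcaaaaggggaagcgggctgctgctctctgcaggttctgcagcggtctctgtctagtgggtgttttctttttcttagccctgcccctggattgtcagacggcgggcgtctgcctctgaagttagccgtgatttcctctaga
Ednrb: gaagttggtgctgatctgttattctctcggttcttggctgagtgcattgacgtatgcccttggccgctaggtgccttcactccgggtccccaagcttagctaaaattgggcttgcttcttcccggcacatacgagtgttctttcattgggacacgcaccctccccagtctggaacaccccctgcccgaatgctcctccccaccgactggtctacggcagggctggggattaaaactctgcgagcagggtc
Ednra: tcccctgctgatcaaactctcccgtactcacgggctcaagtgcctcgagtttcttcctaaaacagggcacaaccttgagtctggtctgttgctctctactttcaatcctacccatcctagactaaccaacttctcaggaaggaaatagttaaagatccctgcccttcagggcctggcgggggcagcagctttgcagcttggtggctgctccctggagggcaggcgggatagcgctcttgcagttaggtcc

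The TAATT letters, searched on both strands from 250 bases before to 50 bases after the start, were found in the promoters of 2 of the 7 genes. They lay at position -137 on the opposite strand for *Lcn2* and at position -227 for *Edn1*, counted from the RefSeq start. The same letters occurred in 27.0% of the 32851 promoters of this length, so their presence is a description of the sequence only. The STAT letters TTCNNNGAA were in 8.30% of all promoters and the AP-1 letters TGANTCA in 7.81%, and neither was found in a promoter of these genes. The NF-kB letters GGGAANNNCC were in 5.78% of all promoters and, among these genes, in the third *Ece1* promoter at position -57. The motifs were searched separately, and none of the matches in these genes overlapped.

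Values are FPKM, the fragments on a gene per kilobase of exon, scaled to the mapped fragments of the library, so that levels of different genes can be set side by side. The mapped reads, estimated from whole-read steps in low FPKM values, were between 9270000 and 12700000 per library, and the deepest library was control 7984. *Rax* FPKM was 189.1 and 181.4 in the controls and 111 and 98.4 in the *Rax* iCKO libraries, with non-overlapping groups (exact permutation test, two-sided, p = 0.333, the smallest that 2 against 2 allows). All 14 Müller glial markers had a mean FPKM of at least 1 and summed to between 13030 and 19200 FPKM per library. Markers of bipolar cells summed to between 3938 and 9148 FPKM and those of rods to between 1106 and 1764 FPKM, so RNA of neurons was also present. In these bulk libraries, fewer cells of a type and less RNA per cell cannot be told apart. At an adjusted p under 0.05 in limma with Benjamini-Hochberg adjustment, 3 of the 12363 genes that averaged 1 FPKM or more differed between the genotypes, 0.0243% of those tested. Of the 7 genes, *Ece1*, *Ednra* and *Ednrb* entered this fit and the other 4 fell under its filter. At an unadjusted p under 0.05 the share was 2.86%. The mouse numbers fall into a pair of runs, 7983 with 7984 and 3911 with 3914, each with 1 mouse of each genotype. The labels do not say what the runs stand for.

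The ligand transcripts were at or near 0 in every library. *Edn1*, the vasoconstrictor ligand of the vascular endothelium, was at 0.0366 FPKM in control 7984, about 0.90 reads, and was listed at 0 in the other 3 libraries. *Edn2*, the ligand associated with stressed photoreceptors, was at 0.206 FPKM in *Rax* iCKO 3914, about 2.4 reads, and was listed at 0 in the other 3. *Edn3*, known for its role in neural crest and melanocyte development, was listed at 0 in all 4 libraries. The reading of 0 had a limit set by depth. A count of 3 reads would have given *Edn3* between 0.0809 and 0.111 FPKM and *Edn2* between 0.187 and 0.256 FPKM, the latter above the *Edn2* value observed in *Rax* iCKO 3914. No difference in the ligands between control and *Rax* iCKO was detectable at this depth, and no ratio of FPKM is given against libraries listed at 0.

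**Figure D1:**
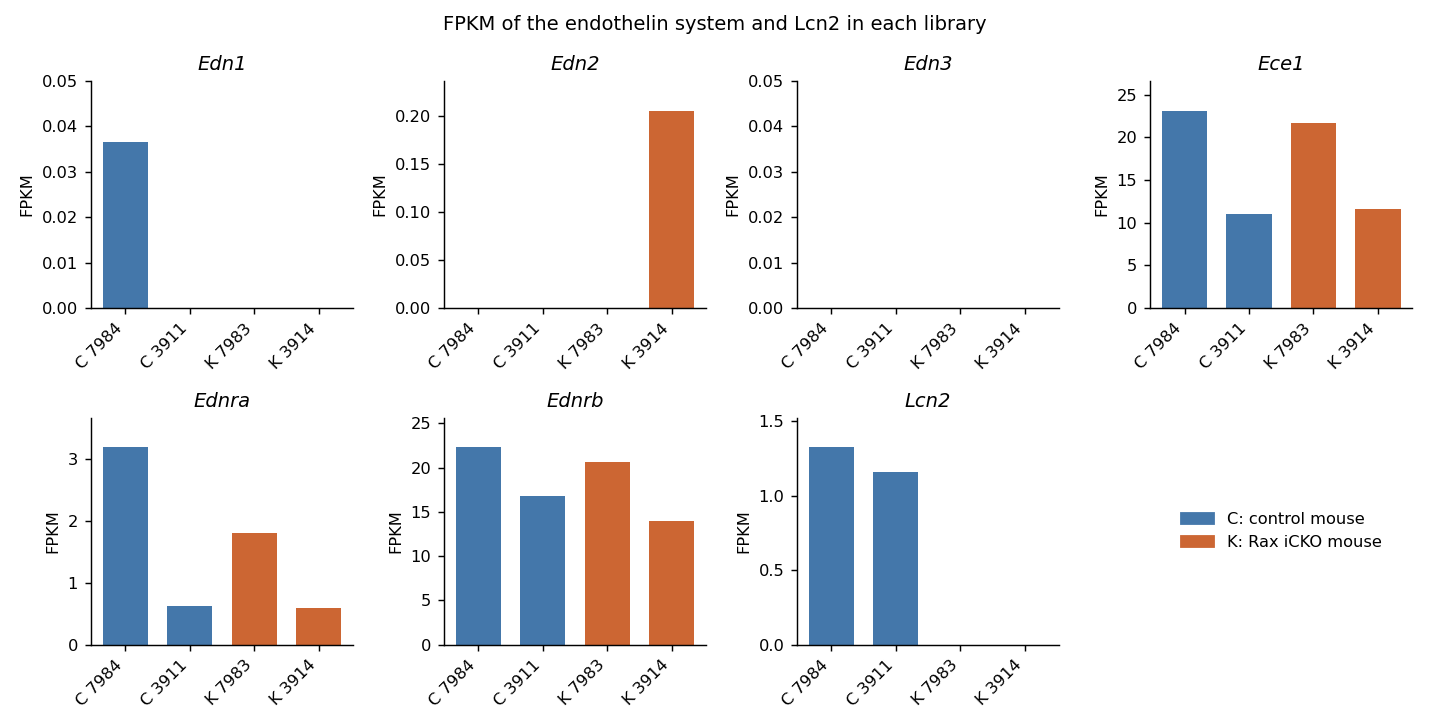
FPKM of the 7 genes in each library (1 bar per mouse; C, control; K, *Rax* iCKO; each panel has its own axis starting at 0). *Ece1* and *Ednra* are higher in mice 7984 and 7983 than in 3911 and 3914 of either genotype, while *Lcn2* is above 0 only in the controls, at 1.33 and 1.16 FPKM.

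*Ece1*, the converting enzyme, was at 23.1 FPKM in control 7984, 10.99 in control 3911, 21.7 in *Rax* iCKO 7983 and 11.6 in *Rax* iCKO 3914. The genotypes overlapped, and the higher value of each genotype was that of the mouse in the run of 7983 and 7984. Mean *Ece1* FPKM was 17.1 ± 8.60 in control against 16.7 ± 7.09 in *Rax* iCKO (SD, n = 2 each), the ratio of the means being 0.976. On GRCm38 the gene spans chromosome 4 from 137862237 to 137965229, plus strand, with 20 exons in its longest coding transcript. Another annotated gene, *Gm13012*, overlaps it on the opposite strand, and the strand setting of the counting was not given in the sources used here.

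*Ednra*, the endothelin A receptor of vascular smooth muscle and pericytes, was at 3.19 FPKM in control 7984, 0.625 in control 3911, 1.81 in *Rax* iCKO 7983 and 0.592 in *Rax* iCKO 3914. The genotypes overlapped, and again the run of 7983 and 7984 held the higher value of each. Mean *Ednra* FPKM was 1.91 ± 1.81 in control against 1.20 ± 0.864 in *Rax* iCKO (SD, n = 2 each), and the ratio of 0.630 lay within the spread of either group. Its difference in log2(FPKM + 1) was -0.30 (standard error 0.54) and was positive, at 0.38, without control 7984. The values rested on about 140, 20, 59 and 19 reads in that order of libraries. *4933431K23Rik* overlaps *Ednra* on the opposite strand.

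*Ednrb*, the endothelin B receptor that Müller glia carry, had the highest mean FPKM of the 7 genes and stood at percentile 72.0 of the 17865 genes with a mean above 0. It was at 22.3 FPKM in control 7984, 16.8 in control 3911, 20.6 in *Rax* iCKO 7983 and 14.0 in *Rax* iCKO 3914. The groups overlapped, with the lower control below the higher *Rax* iCKO library. Mean *Ednrb* FPKM was 19.5 ± 3.86 in control against 17.3 ± 4.67 in *Rax* iCKO (SD, n = 2 each), the ratio of the means being 0.884. On the log2(FPKM + 1) scale, mouse 7983 differed from 7984 by -0.11 and mouse 3914 from 3911 by -0.25. It rested on between 510 and 1100 reads per library, far more than *Ednra*. *Ednrb* has 8 exons in its longest coding transcript and lies on the minus strand of chromosome 14, from 103814625 to 103844402, with no overlapping gene in the annotation.

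Within each library the B receptor was the more abundant receptor per length. The ratio of *Ednrb* to *Ednra* FPKM was 6.98 in control 7984, 26.9 in control 3911, 11.3 in *Rax* iCKO 7983 and 23.6 in *Rax* iCKO 3914. The ratio was smaller in both mice of the run of 7983 and 7984, where *Ednra* was high, and it did not separate the genotypes. *Ednrb* and *Ece1* were close, with an *Ednrb* to *Ece1* ratio between 0.950 and 1.53, and their order changed between libraries. By mean FPKM the order was *Ednrb*, *Ece1*, *Ednra* and *Lcn2*, with *Ece1* at percentile 70.3, *Ednra* at 34.7 and *Lcn2* at 27.0, and the 3 ligands lay below.

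*Lcn2* was the gene among the 7 whose groups did not overlap. It was at 1.33 FPKM in control 7984 and 1.16 in control 3911, a mean of 1.24 ± 0.119 FPKM (SD, n = 2), and it was listed at 0 in *Rax* iCKO 7983 and 3914. The control values rested on about 12 and 7.7 reads by transcript length. In the *Rax* iCKO libraries 3 reads would have given 0.445 and 0.451 FPKM, so 0 there allows a level up to those values and no higher, counting error alone being considered. On the log2(FPKM + 1) scale, mouse 7983 differed from 7984 by -1.22 and mouse 3914 from 3911 by -1.11. Its mean over the 4 libraries was under the 1 FPKM needed for the fit, so *Lcn2* was not among the genes tested. The gene has 6 exons in its longest coding transcript and lies on the minus strand of chromosome 2, from 32384633 to 32388252.

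How often such a pattern occurred across the files is the background to that value. Of the 17865 genes listed above 0 in any library, 2594 had both *Rax* iCKO libraries below both controls, 14.5%, and 2450 had both above, 13.7%. Among the 6 of the 7 genes with a mean above 0, *Lcn2* was below in both *Rax* iCKO libraries and 0 were above. Being listed at 0 in both *Rax* iCKO libraries and above 0 in both controls was found for 216 genes, 1.21%, and the opposite for 97 genes, 0.543%. With both controls at 1 FPKM or more, the number fell to 4 genes, 0.0224%. Besides *Lcn2* these were *4930511A08Rik* and the microRNA genes *Mir6538* and *Mir703*, a condition set after the values were seen. Since *Lcn2* was chosen for this contrast, these shares describe where it lies and do not test it.

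Neutrophils store lipocalin 2, so 11 neutrophil marker genes were read beside *Lcn2*. In control 7984 all 11 were above 0 and summed to 32.2 FPKM, against 2 above 0 and 2.51 FPKM in control 3911, 4 and 5.55 FPKM in *Rax* iCKO 7983, and 2 and 3.31 FPKM in *Rax* iCKO 3914. *Cxcr2* made up nearly all of the sums of mice 3911 and 3914, and it ran the other way. It was at 1.27 FPKM in control 7984, 2.39 in control 3911, 2.50 in *Rax* iCKO 7983 and 3.25 in *Rax* iCKO 3914. Both *Rax* iCKO values of *Cxcr2* were thus above both controls. *S100a8*, which encodes a calprotectin subunit, was at 15.7 FPKM in control 7984, 0.556 in *Rax* iCKO 7983 and was listed at 0 in both mice of the other run. Control 3911 had *Lcn2* at 1.16 FPKM with *S100a8*, *S100a9*, *Ngp*, *Camp* and *Ltf* all listed at 0, while *Rax* iCKO 7983 had *S100a8* and *S100a9* above 0 with *Lcn2* listed at 0. Reactive astrocytes also make lipocalin 2, and the astrocyte markers summed to 152 and 113.8 FPKM in the controls and to 100.3 and 79.6 FPKM in the *Rax* iCKO libraries, with *Pax2* at or near 0. Most of that sum was *Slc14a1*, at 84.9, 57.2, 59.1 and 37.6 FPKM, and *Aldh1l1*, at 44.2, 30.5, 22.4 and 20.9 FPKM in control 7984, control 3911, *Rax* iCKO 7983 and *Rax* iCKO 3914, while *Gfap* overlapped between the genotypes. Müller glial markers summed to 19200 and 14880 FPKM in the controls and to 13030 in each *Rax* iCKO library, and rod markers to 1713 and 1764 against 1232 and 1106 FPKM. Gene by gene, 5 of the 14 Müller glial markers lay below both controls in both *Rax* iCKO libraries, 35.7%. Of the 10 rod markers 8 did so, 80%, against 14.1% of all genes tested. Microglial markers overlapped between the genotypes, at 68.6, 76.2, 114.5 and 21.4 FPKM in control 7984, control 3911, *Rax* iCKO 7983 and *Rax* iCKO 3914. The part of these cells in the *Lcn2* values was not tested.

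**Figure D2:**
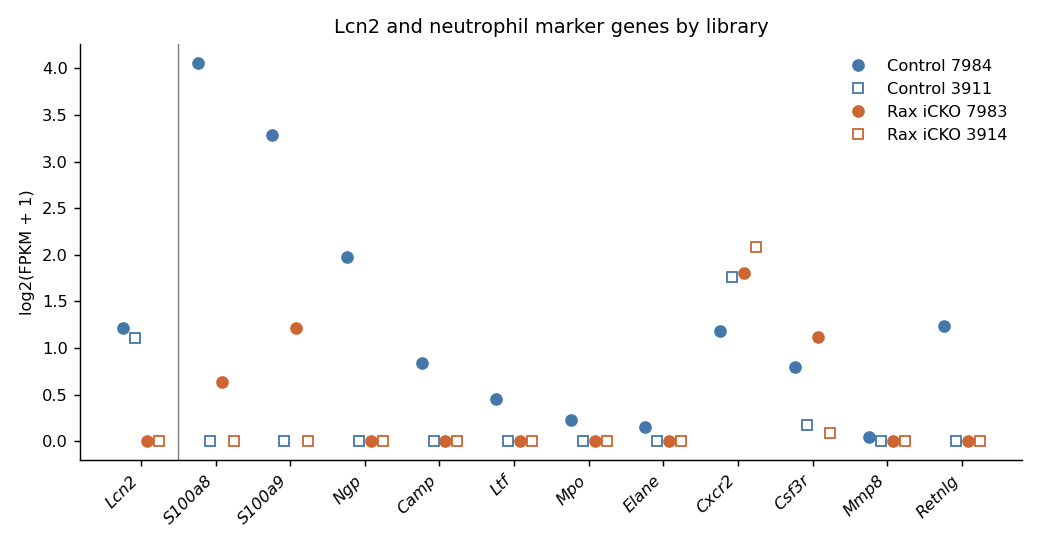
log2(FPKM + 1) of *Lcn2* and of 11 neutrophil marker genes in each library (filled and open symbols are the runs of 7983 and 7984 and of 3911 and 3914). Control 3911 lies beside control 7984 for *Lcn2* but at 0 for the granule genes *S100a8*, *S100a9*, *Ngp*, *Camp* and *Ltf*. *Cxcr2* is lowest in control 7984.

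Genes with the most similar spread over the libraries were found from each gene's share of its FPKM in each of the 4 libraries, over 15400 genes and by Euclidean distance. For *Lcn2* the nearest was *Xist*, the RNA that silences an X chromosome in females, at a distance of 0.00329. *Xist* was at 24.5 and 21.2 FPKM in the controls and at 0.0119 and 0.00605 FPKM in *Rax* iCKO 7983 and 3914. The next were *Cd164l2*, at 0.3001 and 0.2745 FPKM in the controls, and *Smco4*, at 0.739 and 0.579 FPKM, both listed at 0 in the *Rax* iCKO libraries. These 3 were the genes within a distance of 0.05. The Y-linked gene *Ddx3y* was at 12.4 FPKM in *Rax* iCKO 7983 and was listed at 0 elsewhere, so the libraries without *Xist* did not share Y-linked RNA. The labels do not give the sex of the mice, and its part in the *Lcn2* values was not tested. With 2 mice per group, a difference that goes with genotype and a difference that goes with *Xist* cannot be told apart.

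For *Ednrb* the nearest genes were *Ddah1*, which breaks down an inhibitor of nitric oxide synthesis (82.3, 63.2, 76.8 and 51.4 FPKM in control 7984, control 3911, *Rax* iCKO 7983 and *Rax* iCKO 3914, distance 0.00381), then *Cant1* and the integrin gene *Itgav*. Their pattern was common, since 739 genes lay within a distance of 0.05. For *Edn2*, with reads in 1 library, 39 genes were tied at a distance of 0.

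The difference between runs of mouse numbers was not used in choosing the genes and was tested with limma on log2(FPKM + 1), with genotype as a second term and Benjamini-Hochberg adjustment over 12363 genes. Of all genes tested, 2322 differed, 18.8%, with 1098 higher in the run of 7983 and 7984, 8.88%, and 1224 lower, 9.90%. *Ece1* was higher in that run by 0.93 on the log2(FPKM + 1) scale (standard error 0.166, limma adjusted p = 0.00366), with run means of 22.4 ± 1.04 and 11.3 ± 0.465 FPKM (SD, n = 2). A run difference at least as large in either direction was found for 4.84% of the genes tested. *Ednra* was higher by 1.09 (standard error 0.283, limma adjusted p = 0.0202), with run means of 2.50 ± 0.974 and 0.609 ± 0.0236 FPKM. *Ednra* reached the mean of 1 FPKM needed for the fit only through the run in which it was higher, and without that filter its difference did not pass (limma adjusted p = 0.0571). Both were higher in the control and in the *Rax* iCKO mouse of the run, *Ece1* by a ratio of 2.11 and 1.86 and *Ednra* by 5.10 and 3.06. *Ednrb* differed by 0.46 (standard error 0.161, limma adjusted p = 0.0657), which missed the threshold, with a ratio of 1.32 among controls and 1.47 among *Rax* iCKO mice. For all 3 genes the difference between runs was larger than the difference between genotypes.

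**Figure D3:**
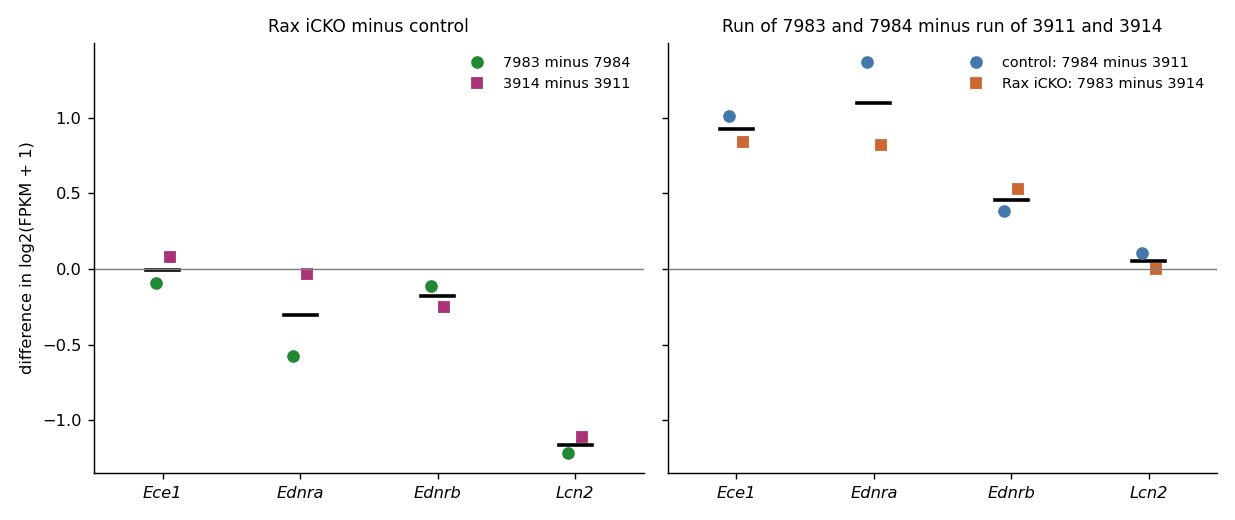
Difference in log2(FPKM + 1) between genotypes within each run of mouse numbers (left) and between runs within each genotype (right); points are single pairs of libraries and bars their mean. *Ece1* and *Ednra* lie close to or below 0 on the left and near 1 on the right (means 0.93 and 1.09), and *Lcn2* shows the opposite arrangement (-1.16 on the left).

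The run difference also moved with transcript length across all genes. Its median was -0.37 for the 752 genes with transcripts under 1000 bases and rose with each length class to 0.23 for the 2471 genes of at least 5000 bases. *Ece1* (4816 bases), *Ednra* (3625) and *Ednrb* (4107) belong to the class from 3500 to under 5000 bases, whose median was 0.12 with quartiles of -0.13 and 0.38. Of the 2578 genes in that class, 4.46% had a run difference at least as large as that of *Ece1* and 2.87% one as large as that of *Ednra*. With a correction for length and GC content, chosen after the data were seen, *Ece1* differed by 0.57 (limma adjusted p = 0.0508) and *Ednra* by 1.09 (limma adjusted p = 0.0554), and neither passed the threshold. The difference between genotypes, *Rax* iCKO minus control, also rose with each length class. Its median was -0.21 under 1000 bases and 0.14 at 5000 bases or more. The *Lcn2* transcript, at 915 bases, has a length of the shortest class, though *Lcn2* was not among the genes tested.

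**Figure D4:**
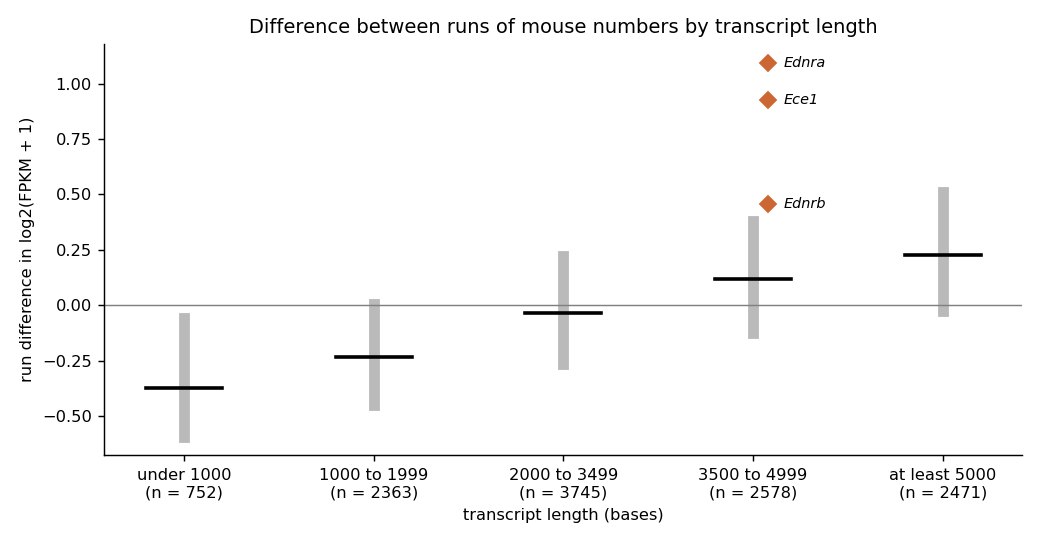
Difference in log2(FPKM + 1) between the run of 7983 and 7984 and the run of 3911 and 3914 by transcript length (black lines, medians; grey bars, quartiles; n, genes per class). *Ece1* and *Ednra* (diamonds) lie above the upper quartile of 0.38 of their length class, and *Ednrb*, at 0.46, just above it.

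Markers of the vascular cells that carry these genes were read beside the run difference. The pericyte markers summed to 29.6 FPKM in control 7984, 11.8 in control 3911, 26.3 in *Rax* iCKO 7983 and 14.4 in *Rax* iCKO 3914, in the same order of runs as *Ednra*. Most of that sum was *Pdgfrb*, the receptor of platelet-derived growth factor B, at 24.7, 10.3, 21.5 and 11.8 FPKM, while the mural cell genes *Acta2*, *Cspg4*, *Myh11* and *Des* were near 0 and none of the 4 exceeded 0.260 FPKM. None of these 4 kept the order of runs in both genotypes. *Rgs5*, *Kcnj8*, *Abcc9*, *Notch3* and *Higd1b*, at most 2.04 FPKM, were each higher in the run of 7983 and 7984 in both genotypes. Among them only *Notch3* was tested between runs, and it did not pass (limma adjusted p = 0.294). The endothelial markers summed to 502.5, 257.9, 416.5 and 272.2 FPKM in the same order, nearly all of it *Kdr*, a receptor of vascular endothelial growth factor, while *Pecam1* and *Cdh5*, which define endothelium, were near 0. The part of vascular cells in the *Ece1* and *Ednra* values was not tested.

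The other genes of endothelin signalling were read as a list of 30, of which 25 had a mean FPKM of at least 1. Between genotypes 0 of the 25 passed the threshold in limma with Benjamini-Hochberg adjustment and 1 had an unadjusted p under 0.05, beside 2.86% of all genes tested. Their median log2 fold change was 0.03, beside -0.0044 over all genes tested. In 1 of the 25 both controls exceeded both *Rax* iCKO libraries, the G protein gene *Gnai3*, and in 4 both were exceeded, against 14.1% and 15.4% of all genes tested. Those 4 were the peptidase gene *Mmel1* and the protein kinase C genes *Prkca*, *Prkcb* and *Prkce*. *Prkcb* was at 5.73 and 5.44 FPKM in the controls and 8.22 and 10.1 in the *Rax* iCKO libraries, a log2 fold change of 0.62 (standard error 0.245) that did not pass after adjustment. *Prkca* is also a marker of rod bipolar cells. Of the 10 bipolar markers, 6 lay above both controls in both *Rax* iCKO libraries, *Prkca* itself among them. The share of all genes tested was 15.4%.

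Between runs, 6 of the 25 pathway genes were higher in the run of 7983 and 7984 in limma with Benjamini-Hochberg adjustment and 0 were lower, beside 8.88% and 9.90% of all genes tested. They were *Furin*, the convertase that cleaves the endothelin precursors before *Ece1*, the G protein genes *Gnaq*, *Gna12*, *Gna13* and *Gnai2*, and *Adrbk1*, whose kinase desensitises G protein-coupled receptors. *Furin* was at 12.8 FPKM in control 7984, 2.14 in control 3911, 12.5 in *Rax* iCKO 7983 and 1.95 in *Rax* iCKO 3914, a difference of 2.17 on the log2(FPKM + 1) scale. *Gna12* was at 47.1, 5.71, 36.2 and 3.77 FPKM in that order, a difference of 2.90. In both genes every mouse of that run was above every mouse of the other.

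The photoreceptor stress list held 24 genes of the cytokine and gliosis loop around *Edn2*, 15 of them with a mean FPKM of at least 1. In limma 0 of the 15 passed the adjusted threshold between genotypes and 2 had an unadjusted p under 0.05, *Socs3* and *Cebpd*, beside 2.86% of all genes tested. The median log2 fold change was -0.25, beside -0.0044 over all genes tested, and 4 lay below both controls in both *Rax* iCKO libraries, 26.7%, and 2 above, 13.3%, against 14.1% and 15.4% of all genes tested. *Socs3*, which encodes a feedback inhibitor of JAK-STAT signalling, was at 29.1 and 28.6 FPKM in the controls and 9.27 and 6.80 in the *Rax* iCKO libraries, a log2 fold change of -1.74. With the run as a block *Socs3* and *Cebpd* passed the adjusted threshold in limma, as did 71 of all 12363 genes tested, 0.574%. The median depended on single libraries, and without control 7984 it was 0.0091. *Lif*, the cytokine upstream of *Edn2*, was low throughout, at 0.432, 0.198, 0.815 and 0.281 FPKM in control 7984, control 3911, *Rax* iCKO 7983 and *Rax* iCKO 3914, with no separation of the genotypes. *Gfap*, the intermediate filament of reactive glia, was lower in the run of 7983 and 7984, with a difference of -0.69 on the log2(FPKM + 1) scale (limma adjusted p = 0.0365), and *Il6st*, the shared receptor subunit of these cytokines, was higher by 0.96 (limma adjusted p = 0.00271).

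The list of *Lcn2* regulators held 21 genes, 14 of them with a mean FPKM of at least 1. Between genotypes 0 of the 14 passed the adjusted threshold in limma and 1 had an unadjusted p under 0.05, *Cebpd*, which the stress list also holds, beside 2.86% of all genes tested. The median log2 fold change was 0.04, with 3 genes below both controls and 3 above, 21.4% each way, against 14.1% and 15.4% of all genes tested. *Cebpd*, a transcription factor of the acute-phase response, was at 23.2 and 30.6 FPKM in the controls and 10.95 and 9.80 in the *Rax* iCKO libraries, a log2 fold change of -1.28. *Nfkbiz*, a coactivator required for *Lcn2* induction, was at 4.74 FPKM in control 7984, 2.17 in control 3911, 4.55 in *Rax* iCKO 7983 and 2.19 in *Rax* iCKO 3914, and it followed the run rather than the genotype.

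Receptors of lipocalin 2 and genes of iron handling made a list of 20, 17 of them with a mean FPKM of at least 1. Between genotypes 0 of the 17 passed the adjusted threshold in limma and 3 had an unadjusted p under 0.05, *Bdh2*, *Slc40a1* and *Cp*, beside 2.86% of all genes tested. The median log2 fold change was -0.13, with 6 genes below both controls in both *Rax* iCKO libraries, 35.3%, and 3 above, 17.6%, against 14.1% and 15.4% of all genes tested. *Steap3*, counted below, and *Hamp*, counted above, reached the mean of 1 FPKM needed for the fit only through the group in which they were higher. *Steap3* averaged 1.66 FPKM in control and 0.520 in *Rax* iCKO, and *Hamp* 0.560 and 1.66. *Slc22a17*, a receptor of lipocalin 2, was at 192 and 170 FPKM in the controls and 182 and 168 in the *Rax* iCKO libraries, and its genotypes overlapped. *Bdh2*, an enzyme of siderophore synthesis, was at 38.3 and 41.8 FPKM in the controls and 20.4 and 30.3 in the *Rax* iCKO libraries. *Slc40a1*, the iron exporter ferroportin, was at 5.41 and 4.91 FPKM in the controls and 7.79 and 8.91 in the *Rax* iCKO libraries, a log2 fold change of 0.60. Between runs *Tfrc*, the transferrin receptor, was lower in the run of 7983 and 7984, with a difference of -0.87 (limma adjusted p = 0.00378), as was *Fth1*, the ferritin heavy chain, with one of -0.63 (limma adjusted p = 0.0175).

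Of the 17 other lipocalin family genes in the files, 12 were listed at 0 in all 4 libraries and 4 had a mean FPKM of at least 1. Between genotypes 0 of the 4 passed the adjusted threshold in limma and 1, *Apom*, had an unadjusted p under 0.05, beside 2.86% of all genes tested. *Apom*, a carrier of sphingosine phosphate in plasma, was at 1.53 and 4.40 FPKM in the controls and 1.03 and 0.209 in the *Rax* iCKO libraries, and it reached the mean of 1 FPKM needed for the fit only through the controls. *Ptgds*, the retinal prostaglandin D synthase, was at 38.4 FPKM in control 7984, 71.4 in control 3911, 55.4 in *Rax* iCKO 7983 and 73.6 in *Rax* iCKO 3914, without separating the genotypes.

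**Figure D5:**
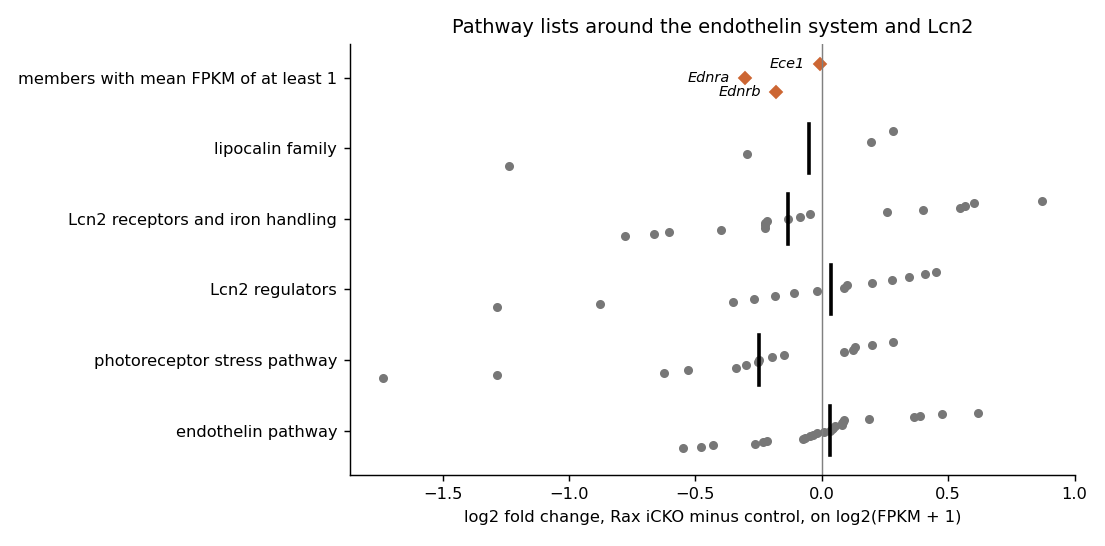
log2 fold change (*Rax* iCKO minus control, on log2(FPKM + 1)) of the tested genes of each list (grey points; black lines, medians) and of *Ece1*, *Ednra* and *Ednrb* (diamonds). The list medians lie between -0.25 and 0.04, and the lowest points are *Socs3* at -1.74 and *Cebpd* at -1.28.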

How the data were processed

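RNA-seq of mTFP-positive cells sorted by FACS was analysed in 4 libraries. The authors mapped the reads to mm10 and deposited 1 FPKM value per gene symbol and library. The submitters' processing notes name TopHat2 2.1.1, Bowtie2 2.2.8, SAMtools 0.1.18 and Cuffdiff 2.2.1. The methods of the study give other versions of TopHat, Bowtie2 and SAMtools and name Cufflinks, so the versions are not settled here. FPKM were used without further scaling. FPKM divide by each library's mapped fragments, so a change in abundant genes shifts the rest.

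The 12363 genes averaging 1 FPKM or more were fitted with limma 3.58.1 in R 4.3.3 on log2(FPKM + 1), with a variance trend and Benjamini-Hochberg adjustment. The added 1 shrinks fold changes of low genes. The genotype fit had no block. The run fit had genotype and run as terms. Exact permutation tests used scipy 1.17.1. The steps were tested on simulated data.

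Values under 0.5 FPKM fell on whole-read steps (90.8% of 2310 genes within 0.03 reads, against 26.7% after noise). Transcript lengths of 474 single-transcript genes, less 200 bases, gave the mapped reads, with quartiles of 8550000 and 9440000 for mouse 7983. FPKM hold no counts, so no count test was run.

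The 7 genes, the lists and the motifs were chosen with earlier results of these data known, and no list is independent support. All 7 genes are described, with up to 3 nearest genes by library shares and the list genes with an unadjusted p under 0.05, with groups that did not overlap or with a defining role. *Grk2* was matched as *Adrbk1* through RefSeq synonyms, and the neutrophil marker *Ly6g* was not matched. Gene positions are from GENCODE M21. Deviations from the group means of libraries in the same run had a correlation of 0.503 over 12363 genes.

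Alternatives were a replicate block by run, leaving out each mouse, a pseudocount of 0.1, quantile normalization, scaling to equal medians, a fit without the variance trend, and a minimum mean of 0 or 5 FPKM. A length and GC correction (loess, span 0.3) was added after the data were seen. The authors' other experiments were not used here.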

Additional observations from a re-analysis of the deposited data

How the results depend on the processing

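Of the alternatives tried, 201 values stayed within their replicate spread, within a set factor for counts of genes, or on their side of the threshold. Another 50 moved, 3 lost their call and 1 gained it. The fold change of a single gene cannot change with the filter, the variance trend or the block, and such values count among the 201. *Lcn2* was lower in *Rax* iCKO under each alternative run. Its listing at 0 in both *Rax* iCKO libraries fixed that direction in advance, so the alternatives do not check it. With pseudocount 0.1 the difference in log2(FPKM + pseudocount) was -3.74 for *Lcn2*, -0.23 for *Edn1* and 0.81 for *Edn2*. Each of these genes has a group listed at 0 throughout, so the added constant sets these differences, which are neither folds nor bounds. Leaving out each mouse gave between -1.22 and -1.11 for *Lcn2*, -0.052 and 0 for *Edn1*, and 0 and 0.27 for *Edn2*. It also turned the sign of the uncalled differences, from -0.51 to 0.50 for *Ece1*, from -0.99 to 0.38 for *Ednra* and from -0.44 to 0.08 for *Ednrb*, and put between 1 and 5 of the 7 genes below and between 0 and 1 above the controls. The cause of these changes was not tested, other than that fewer libraries entered.

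The run difference of *Ednra* was 1.09 with an adjusted p of 0.0571 in limma without a filter and 0.0554 with the length and GC correction. That of *Ece1* was 0.57 with this correction (limma adjusted p = 0.0508), and that of *Ednrb*, at 0.46, passed under a minimum mean of 5 FPKM (limma adjusted p = 0.0441), where fewer genes were tested. It could not be tested without a mouse, since no residual degree of freedom was left. Genes higher in the run of 7983 and 7984 numbered 410 without a filter, 655 without a variance trend and 517 with the length and GC correction, and genes lower 336, 281 and 367 in turn and 2093 with equal medians.

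With the replicate block by run, 24 genes were higher and 47 lower in *Rax* iCKO in limma, against 1 and 2 without it. It called 2 genes of the stress list and 1 of the *Lcn2* regulators, and no other gene of the lists. Mice in a run share a range of numbers only, and no source says that the runs pair them. The higher and lower counts were 0 and 0 without a filter or under a minimum mean of 5 FPKM. The higher count was 2 with quantile normalization or the length and GC correction and 3 with equal medians. Leaving out each mouse gave from 7 to 14 higher and from 5 to 12 lower genes, the lone mouse being taken to vary like the other group.

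The median of the iron handling list was -0.22 under a minimum mean of 5 FPKM, -0.039 with quantile normalization, -0.16 with equal medians, -0.070 with the length and GC correction and from -0.13 to -0.11 without each mouse. Leaving out each mouse gave medians from -0.47 to 0.0091 for the stress list, from -0.21 to 0.18 for the *Lcn2* regulators and from -0.35 to 0.24 for the lipocalins. Depth limits the ligands and *Lcn2*, which rest on at most about 12 reads in a library. The spread of 2 mice per group limits the rest.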
